A study of Mus musculus with 128 samples.

Results

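The 10 Fbxw genes described here lie within a cluster of Fbxw genes on mouse chromosome 9 and were followed through the first cleavages of embryos with and without maternal Kdm4a. They are Fbxw13, Fbxw14, Fbxw15, Fbxw16, Fbxw18, Fbxw19, Fbxw20, Fbxw21, Fbxw24 and Fbxw28. Members were chosen by symbol, all 10 were present among the 41300 genes of the deposited table, and their sum in each library is called the family sum here. RNA with a polyA tail was sequenced from single C57BL/6 MII oocytes (mature unfertilised eggs) and from single embryos of 2, 4 and 8 cells, with 16 libraries for each of 8 groups of stage and genotype. The control group is labelled wildtype (m+/p-) and the other is labelled Kdm4a knockout (m-/p-). Sperm of Kdm4a knockout males made all embryos of both groups. A wildtype embryo here thus carries one working allele, from the egg, and a knockout embryo carries no working allele. Both genotypes were sampled together, when the control embryos had reached the stage, so a knockout embryo that lagged could carry an older stage's RNA under the same label. Kdm4a codes for a histone demethylase of methylated H3K9 and H3K36. The labels do not say how many females the oocytes came from, so p-values measure the spread between these oocytes and embryos.

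F-box proteins are the exchangeable arm of SCF ubiquitin ligases. The F-box binds Skp1, Skp1 is held by the scaffold Cul1, and Rbx1 brings in the ubiquitin-conjugating enzyme, while a second domain of the F-box protein holds the protein to be tagged for destruction. In the Fbxw class that second domain is made of WD40 repeats. Oocytes store messenger RNA for the first days of development, and much of it is destroyed as the embryo starts its own transcription at the 2-cell stage in the mouse.

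The cluster was mapped first, since the likeness of its genes bears on every count below. In the GENCODE M21 annotation of mm10 the members span chr9:109139447-109702700, and the whole cluster of 14 Fbxw genes spans chr9:109139447-109790670, which is 651.2 kb with no other protein-coding gene. All 14 are on the minus strand. The deposited exon positions of 7 of the 10 members had the same outer ends as in M21, and the other 3 differed at 1 end. The nearest coding neighbours are Plxnb1, a semaphorin receptor gene, on the left and Spink8, a protease inhibitor gene, on the right. The longest coding transcripts of the members have 9 or 10 exons and 1483 to 2242 bases. Over the 45 pairs of members, identity of these transcripts in global alignment ran from 78.6% (Fbxw24 and Fbxw28) to 99.2% (Fbxw14 and Fbxw28), with a median of 84%. Windows of 150 bases, the read length, that occur without change in a transcript of another Fbxw gene of the cluster made up 30.2% of Fbxw14 and 36% of Fbxw28, and 0 windows of the other 8 members. A pair of antisense genes, Gm42493 and Gm42756, overlap the gene bounds of Fbxw16 and Fbxw15. Overlap of their exons was not examined, and reads from them may not be told apart from those of the members.

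The start regions were alike too. RefSeq promoter sequences (GRCm38.p6) were found for 9 of the 10 members, all but Fbxw13. Over their 36 pairs, the 250 bases before the gene start were 84.3% to 97.3% identical (median 90.2%). The longest run of letters shared by all 9 was 12 bases. Among 27025 promoters it occurs, on either strand, in 11 genes (0.0407%): the 9 members, the cluster gene Fbxw26, and Olfr829, an olfactory receptor gene. The stretches below run on the minus strand, 5′ to 3′, and end at the base before the RefSeq start of each gene. They were chosen to show the most abundant members and a pair with less RNA, with the shared run and a CAGCTG upstream of it in capitals.
Fbxw14, chr9:109287677-109287778: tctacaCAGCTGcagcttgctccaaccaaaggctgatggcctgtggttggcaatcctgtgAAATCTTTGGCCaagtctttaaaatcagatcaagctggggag
Fbxw28, chr9:109339660-109339761: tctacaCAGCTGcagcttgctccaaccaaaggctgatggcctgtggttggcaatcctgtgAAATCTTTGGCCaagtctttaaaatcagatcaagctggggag
Fbxw24, chr9:109626060-109626166: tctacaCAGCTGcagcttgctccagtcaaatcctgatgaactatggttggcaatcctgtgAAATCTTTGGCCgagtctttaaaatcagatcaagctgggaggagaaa
Fbxw16, chr9:109449141-109449246: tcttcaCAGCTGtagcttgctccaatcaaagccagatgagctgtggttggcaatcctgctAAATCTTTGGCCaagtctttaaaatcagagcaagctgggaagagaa
Fbxw20, chr9:109234755-109234840: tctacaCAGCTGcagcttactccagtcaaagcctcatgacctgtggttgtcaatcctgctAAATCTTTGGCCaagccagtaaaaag
The stretches of Fbxw14 and Fbxw28 are the same letter for letter. CAGCTG is a form of the E-box CANNTG, the letters read by basic helix-loop-helix factors, among them the oocyte factor FIGLA. With both strands searched in the 250 bases, CANNTG (which includes CAGCTG) occurs 2 to 5 times in each of the 9 member promoters and at least once in 66% of all promoters. CAGCTG itself is in 9 of 9 and in 12.8% of all promoters. The TATA letters TATAAA are in 0 of 9 against 13% of all promoters, and TTTAAAA, searched after the sequences had been read, is in 8 of 9 (all but Fbxw20) against 8% of all. The 9 promoters are near copies of each other, so their matches are not independent and enrichment over all promoters was not tested. The shared run was picked because all 9 hold it. These matches describe letters and were not tested as binding sites.

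**Figure D1:**
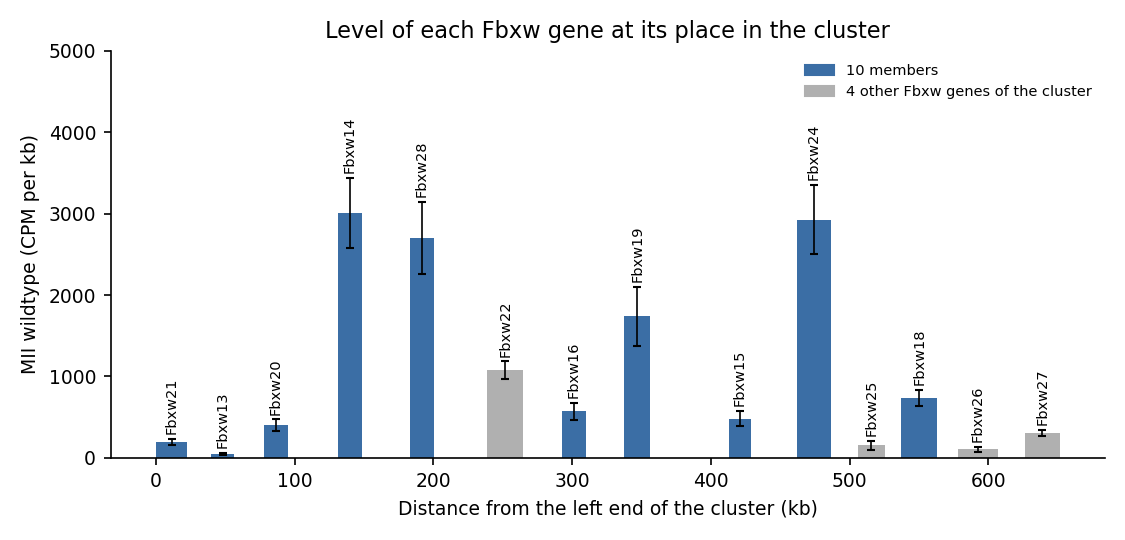
Mean level in wildtype MII oocytes (CPM per kb of exon, bars; error bars are SD, n = 16) of each of the 14 Fbxw genes, drawn to scale at its distance in kb from the left end of the cluster. The 10 members are blue and the 4 other Fbxw genes are grey. Fbxw14, Fbxw28 and Fbxw24 stand highest, and the high genes are not all next to each other.

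Many deposited values of the members were fractions. For each member, 81.0% to 94.4% of its non-zero values were not whole numbers, against 25.4% for Gdf9, an oocyte growth factor gene. The sources used here do not say how reads that match several copies were counted. Shares between Fbxw14 and Fbxw28, which share the most sequence, are the least certain, and the family sum is given beside the single genes.

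After 1 library of 8-cell knockout embryos with 419 counts (replicate 4) was left out, and another (replicate 7) was set apart for its markers, 126 libraries remained. Their totals ran from 528377 to 4657857 counts. Kdm4a checked the labels at MII, with 4.60 to 16.2 CPM (counts scaled by the library total) in oocytes of the wildtype. Knockout oocytes had 0 to 3.76 CPM. The groups did not overlap (log2 fold change -3.001 ± 0.24 SE, edgeR adjusted p = 4.96e-11). It was lower in 2-cell knockout embryos too (-2.42 ± 0.30 SE, edgeR adjusted p = 3.31e-07). Its ranges there overlapped, at 0 to 6.02 CPM in the knockout and 5.09 to 22.6 CPM in the wildtype. At 4 and 8 cells its levels overlapped as well and it did not pass the filter on low counts. All 10 oocyte markers were detected at MII in both genotypes, and the 8-cell marker sum was at least 520.9 CPM in every 8-cell library kept. Summed oocyte markers ran from 3449 to 7772 CPM in wildtype and from 1457 to 11810 CPM in knockout oocytes. Of 12 cumulus and granulosa cell markers, 5 (Amh, Inha, Inhba, Ptx3 and Tnfaip6) were at 0 in all MII oocytes, where the summed list reached 122 CPM at most. Most of that sum was Cyp19a1, the aromatase gene, with 64.4 to 114.9 CPM in oocytes of the wildtype and 50.36 to 119 CPM in those of the knockout, and its part in the results was not tested.

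Several Fbxw members were among the most abundant transcripts of the egg. In wildtype MII oocytes the family sum was lowest at 16981, in the median at 21014 and highest at 26601 CPM (mean 21142 ± 2586 SD, n = 16), which is 2.11% ± 0.26 (SD) of all counts. Knockout oocytes had 14560, 21882 and 24864 CPM (mean 21496 ± 2136 SD, n = 16). The 2 genotypes overlapped throughout, and the lowest knockout value came from replicate 15. By CPM, Fbxw14 ranked 17, Fbxw28 ranked 18 and Fbxw24 ranked 24 among all genes in wildtype oocytes.

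Levels between members were compared per kb of exon. In wildtype oocytes Fbxw14 had 3011 ± 428 CPM per kb (SD, n = 16), Fbxw24 had 2927 ± 425 and Fbxw28 had 2700 ± 444. These 3 did not separate: Fbxw14 was above Fbxw24 in 8 of 16 oocytes and Fbxw24 above Fbxw28 in 12 of 16. Fbxw19 followed with 1737 ± 364 CPM per kb and lay below Fbxw28 in 16 of 16 oocytes. A middle group came next, with Fbxw18 at 739 ± 97.2, Fbxw16 at 573 ± 104, Fbxw15 at 481 ± 94.0 and Fbxw20 at 400 ± 71.8 CPM per kb. Neighbours within it overlapped in range, although the order held in 14 to 16 of 16 oocytes for each pair. Fbxw21 at 198 ± 37.4 and Fbxw13 at 46.6 ± 11.8 CPM per kb closed the order. Fbxw13 was lower than every other member in every wildtype oocyte, and the ranges of Fbxw21 and Fbxw13 did not overlap.

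From the egg to 8 cells the members went from 2.11% of all counts to near the limit of detection. The family sum of wildtype embryos had a median of 4569 CPM at 2 cells (range 2042 to 12250; mean 5538 ± 3042 SD), 156 CPM at 4 cells (39.2 to 567; mean 180 ± 134) and 40.9 CPM at 8 cells (20.4 to 124; mean 46.2 ± 25.9), with n = 16 each. No 2-cell library of the wildtype reached the lowest wildtype oocyte, and no 4-cell library reached the lowest 2-cell embryo. Of the mean oocyte level, 26.2% was left at 2 cells and 0.219% at 8 cells. The steepest step came between 2 and 4 cells, where the mean was 30.8-fold lower. CPM is a share of each library, so a fall can come from loss of these RNAs and from gain of others. The embryos were not spiked with standard RNA as far as the labels say, and these cannot be told apart.

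**Figure D2:**
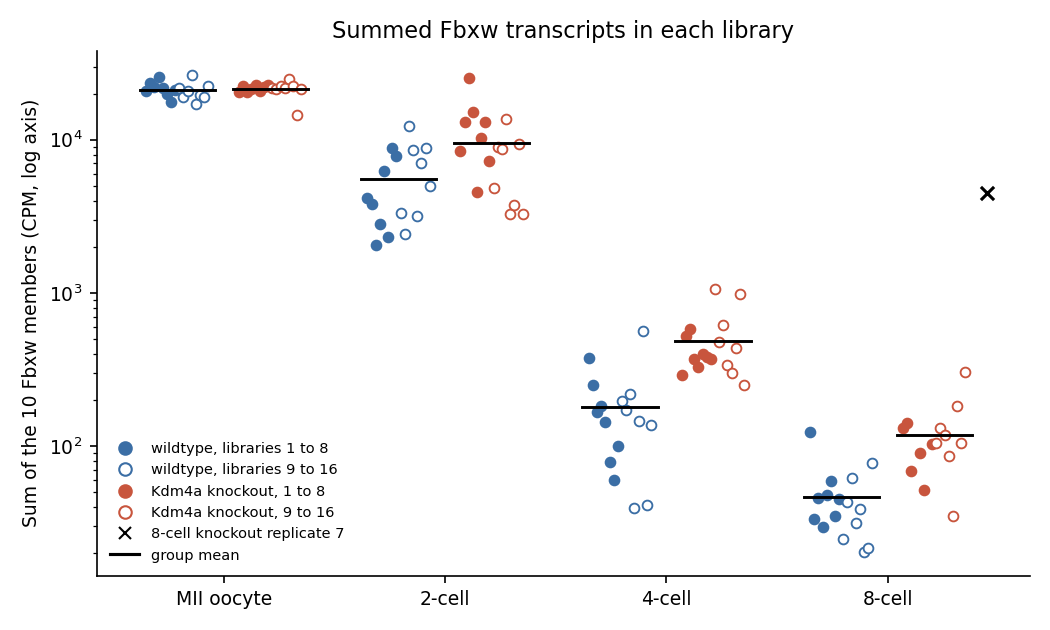
Sum of the 10 members (CPM, log axis) in each library by stage, with wildtype in blue and Kdm4a knockout in red, filled for libraries 1 to 8 and open for 9 to 16; black lines are group means and the cross is 8-cell knockout replicate 7. MII oocytes of both genotypes lie between 14560 and 26601 CPM, and at 4 cells the knockout lies between 251 and 1054 CPM against 39.2 to 567 CPM in the wildtype.

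Between MII and 2 cells, 9 of 10 members fell in the wildtype (edgeR adjusted p under 0.05 and a log2 change of at least 1 in size), where 19.2% of the genes tested were called lower. The same number, 9 of 10, fell in the knockout against 18.6% of the genes tested. There Fbxw13 (-1.008) and Fbxw20 (-1.006) lay just past the threshold. With RLE factors, with DESeq2 and in a fit of the knockout groups only, 7 of 10 fell in the knockout. In these fits 1759 of 10240, 2050 of 32009 and 1646 of 8382 genes tested were called lower. The wildtype kept 9 of 10 in all 3 alternatives, where 1775 of 10240, 2089 of 32009 and 1726 of 8679 genes tested were called lower. The median member changed by -2.06 in the wildtype and -1.39 in the knockout on the log2 scale, against 0.21 and 0.19 over all genes tested. Fbxw19 fell furthest in the wildtype (log2 change -3.41 ± 0.18 SE, edgeR adjusted p = 1.16e-26): oocytes held 1600 to 3923 CPM and 2-cell embryos 198 to 420 CPM, with no overlap. Fbxw15 was the member not called. Wildtype oocytes held 472 to 1058 CPM of it and 2-cell embryos 163 to 1009 CPM, so the highest embryo nearly reached the highest oocyte (-0.88 ± 0.24 SE, edgeR adjusted p = 0.000645). In the knockout its mean was 802 CPM at MII and 760 CPM at 2 cells (-0.50 ± 0.23 SE, edgeR adjusted p = 0.0490).

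From 2 to 4 cells all 10 members fell in both genotypes, where 43.9% (wildtype) and 42.4% (knockout) of the genes tested were called lower. Fbxw20 fell most in the wildtype (-6.95 ± 0.50 SE, edgeR adjusted p = 2.16e-20), from 72.9 to 547 CPM at 2 cells to at most 10.6 CPM at 4 cells. Fbxw28 (-6.30 ± 0.44 SE) and Fbxw14 (-5.73 ± 0.40 SE) came next, whereas Fbxw16 fell least (-4.07 ± 0.38 SE). The median member changed by -4.95 in the wildtype and -4.27 in the knockout. At this step the scaling matters: with RLE in place of TMM factors the median of all genes moved from -0.48 to -0.76 in the wildtype and from -0.34 to -0.69 in the knockout. Relative to that median the members stood at -4.47 (TMM) and -4.51 (RLE) in the wildtype, and at -3.93 in the knockout under both. From MII to 2 cells in the wildtype the same swap moved the median of all genes by 0.12.

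Between 4 and 8 cells 9 members passed the filter on low counts, all but Fbxw13. Of these, 8 fell in the wildtype against 12.4% of the genes tested, and 7 fell in the knockout against 6.61%. Fbxw24, still the highest at 4 cells, went from a wildtype median of 39.0 to 8.98 CPM (-2.02 ± 0.34 SE, edgeR adjusted p = 2.09e-06). Fbxw20 was not called in either genotype (0.55 ± 0.62 and -0.50 ± 0.61 SE), and Fbxw18 was not called in the knockout. At 8 cells many values were at the limit of detection. There 3 counts were worth 0.971 to 1.96 CPM in wildtype libraries, and Fbxw18 was at 0 in 13 of 16 and Fbxw13 at 0 in 10 of 16 of them.

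**Figure D3:**
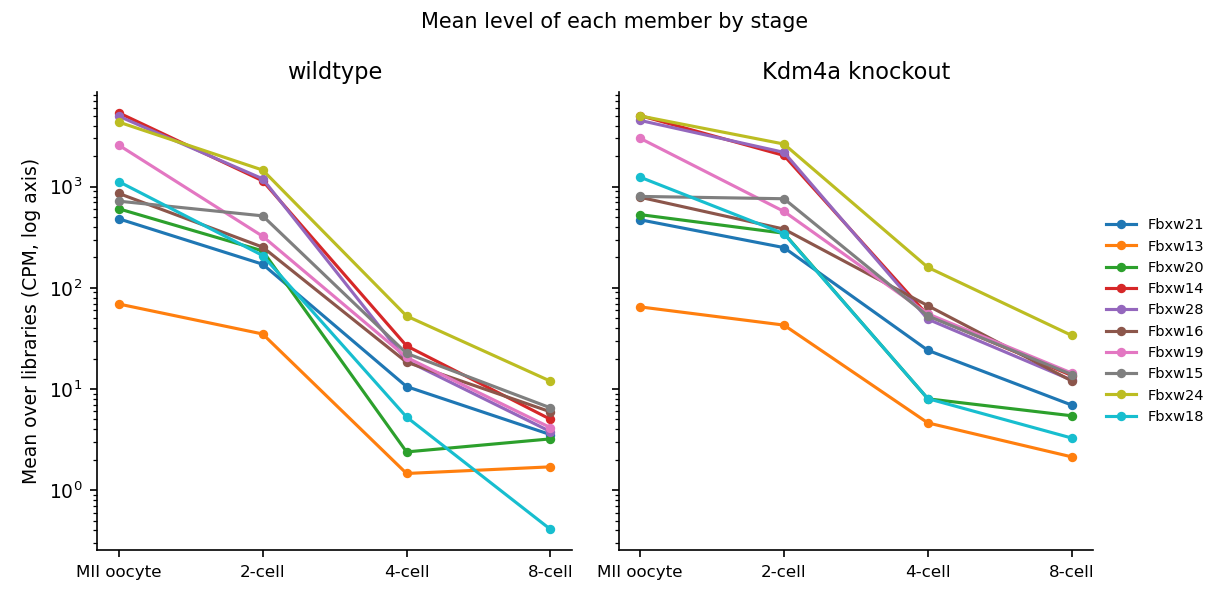
Mean level over libraries (CPM, log axis) of each of the 10 members at the 4 stages, wildtype on the left and Kdm4a knockout on the right, 16 libraries a group and 14 for 8-cell knockout. All lines drop most from 2 to 4 cells, Fbxw15 drops least from MII to 2 cells (from 720 to 515 CPM in the wildtype and from 802 to 760 CPM in the knockout), and Fbxw18 ends lowest in the wildtype at 0.410 CPM, below the worth of 3 counts.

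The copies that made up the family were not the same at each stage. Fbxw14, Fbxw28 and Fbxw24 together held 69.6% ± 2.79 (SD, n = 16) of the family sum in wildtype oocytes, 65.8% ± 5.89 at 2 cells and 54.3% ± 10.4 at 4 cells. In the knockout they held 67.9% ± 2.20, 70.55% ± 3.475 and 54.4% ± 7.85 (n = 16 each). Fbxw15 made up 2.68% to 4.13% of the sum in wildtype oocytes and 6.745% to 12.85% in wildtype 2-cell embryos, so that all 16 embryos lay above all oocytes. In the knockout its oocyte shares ran from 2.80% to 9.66% and its 2-cell shares from 5.28% to 10.2%, and 1 of 16 embryos lay above all oocytes. The highest oocyte share there was that of replicate 15, and without it the oocytes reached 4.098% and all 16 embryos lay above them. Fbxw20 gained share as well, with 14 of 16 wildtype and 16 of 16 knockout 2-cell embryos above every oocyte of their genotype. The share of Fbxw19 went the other way: 10 of 16 wildtype and 11 of 16 knockout embryos (16 of 16 without replicate 15) lay below every oocyte. The mean share of Fbxw14 went from 25.4% to 19.7% in the wildtype, where 15 of 16 embryos were below the lowest oocyte, and in the knockout from 23.35% to 21.01%, where 0 of 16 were with oocyte replicate 15 (15.61%) and 9 of 16 without it. At 8 cells Fbxw24 was the largest part in both genotypes, with 23.6% in the wildtype and 29.7% in the knockout.

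**Figure D4:**
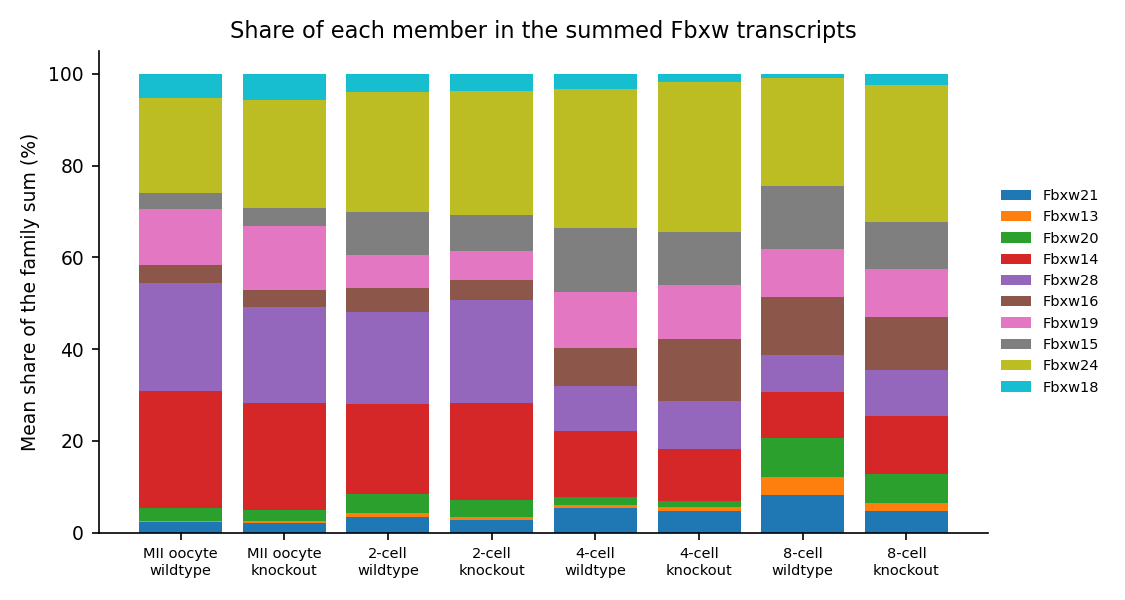
Mean share (%) of each of the 10 members in the family sum for the 8 groups of stage and genotype, stacked in chromosome order. Fbxw14 and Fbxw28 shrink from 25.4% and 23.5% in wildtype oocytes to 14.3% and 9.70% at 4 cells, while Fbxw15 grows from 3.39% to 13.99%.

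Within a group of 2-cell embryos, those high in one member were high in the others. Over the 16 wildtype 2-cell embryos the 45 pairs of members had correlations of 0.378 to 0.995 on the log2(CPM + 1) scale (median 0.85), and over the 16 knockout embryos 0.562 to 0.993 (median 0.917). In oocytes the median was 0.43 in the wildtype and 0.17 in the knockout. These r values describe values that share a library and its total, and may share reads that match several copies.

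The question of maternal Kdm4a was then asked stage by stage. In MII oocytes 0 of 10 members were called different by edgeR, where 5.27% of the genes tested were called higher and 6.69% lower. At an unadjusted p under 0.05 there was 1, Fbxw24, against 1950 of 7680 genes tested. Fbxw24 had 3396 to 5818 CPM in oocytes of the wildtype and 4331 to 6100 CPM in those of the knockout (0.23 ± 0.08 SE, edgeR adjusted p = 0.0556). All 16 knockout oocytes lay above the wildtype median of 4228 CPM. It was called with RLE factors and with DESeq2, where 5.65% and 2.59% of the genes tested were called higher. Without knockout replicate 15 the members called higher were 3 (Fbxw18, Fbxw19 and Fbxw24), against 9.8% of the genes tested. The other members lay between -0.17 (Fbxw20) and 0.23 (Fbxw19). The ratio of mean family sums was 1.02.

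At 2 cells the knockout held more of these RNAs. The family sum was 3280 to 25396 CPM in the knockout (median 8839; mean 9557 ± 5718 SD, n = 16) against 2042 to 12250 CPM in the wildtype (median 4569). The ranges overlapped, and 12 of 16 knockout embryos lay above the wildtype median. Of the 10 members 5 were called higher (Fbxw16, Fbxw18, Fbxw19, Fbxw21 and Fbxw24) and 0 lower, where 7.25% of the genes tested were called higher. All 10 had a log2 fold change above 0, with a median of 0.70.

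Fbxw19 differed most clearly at this stage. Wildtype embryos had 198, 319 and 420 CPM (lowest, median, highest) against 280, 467 and 1861 CPM in those of the knockout, and 11 of 16 knockout embryos were above the highest wildtype embryo (0.88 ± 0.20 SE, edgeR adjusted p = 0.00344). Fbxw24 had 497, 1167 and 3647 CPM in the wildtype and 763, 2412 and 7583 CPM in the knockout (0.89 ± 0.32 SE, edgeR adjusted p = 0.0469, 11 of 16 above the wildtype median). Fbxw14 and Fbxw28 had estimates of the same size with a wider error (0.88 ± 0.33 and 0.91 ± 0.34 SE) and edgeR adjusted p of 0.0610 and 0.0661. So the line between called and not called members at 2 cells does not follow the size of the difference.

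The difference at 2 cells was found in the libraries numbered 1 to 8 and not in those numbered 9 to 16, and whether the 2 ranges differ was not tested. In libraries 1 to 8 the family sum averaged 4759 ± 2585 CPM for the wildtype against 12142 ± 6374 CPM for the knockout (SD, n = 8 each), and 9 of 10 members were called higher by edgeR, with a median log2 fold change of 1.25, where 6.76% of the genes tested were called higher. In libraries 9 to 16 it was 6317 ± 3429 and 6972 ± 3761 CPM (n = 8 each), 0 members were called, 0 had an unadjusted p under 0.05, and the median was 0.09. In that range few genes were called higher at all, 37 of 8584 tested (0.431%), and 1351 had an unadjusted p under 0.05. The labels do not say what the numbers mark. The sum of 9 markers of the 2-cell stage had medians of 2328 CPM in the wildtype and 1557 CPM in the knockout among libraries 1 to 8, and of 3059 and 1446 CPM among 9 to 16. The sum of oocyte markers had 3627 and 4398 CPM in the former and 3989 and 4001 CPM in the latter, and the part of either in the result was not tested. DESeq2 called the same 5 members, where 2.34% of the genes tested were called higher. A fit with no filter on low counts called 1 (Fbxw19), against 3.01% of the genes tested. Without knockout replicate 13, the library with the fewest counts, 7 members were called, Fbxw14 and Fbxw28 among them, against 8.1% of the genes tested.

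At 4 cells the knockout again held more of these RNAs. The family sum was 251, 390 and 1054 CPM (lowest, median, highest) in the knockout, with a mean of 481 ± 234 (SD, n = 16), against 39.2, 156 and 567 CPM in the wildtype. All 16 knockout embryos lay above the wildtype median, and 14 of 16 wildtype embryos lay below the lowest knockout embryo. The ratio of means was 2.68. Of 8 members that passed the filter, 6 were called higher (Fbxw14, Fbxw15, Fbxw16, Fbxw19, Fbxw24 and Fbxw28) and 0 lower, where 8.97% of the genes tested were called higher. A low gene can pass that filter through the group where it is high. With no filter 7 of all 10 members were called, the seventh being Fbxw20, where 5.64% of the genes tested were called higher.

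Fbxw24 had 7.59, 39.0 and 162 CPM in the wildtype and 70.6, 142 and 425 CPM in the knockout (1.61 ± 0.31 SE, edgeR adjusted p = 0.000393, 16 of 16 above the wildtype median). Fbxw16 had 0, 16.7 and 79.8 CPM against 14.7, 52.0 and 181 CPM (1.86 ± 0.44 SE, edgeR adjusted p = 0.00362, 15 of 16). Fbxw28 had 1.27, 10.5 and 85.6 CPM against 24.4, 43.4 and 105 CPM (1.396 ± 0.38 SE, edgeR adjusted p = 0.00911, 16 of 16). In all 3 the knockout lacked the low values seen in the wildtype, and at least 1 wildtype embryo reached into the knockout range. Fbxw15 (1.20 ± 0.31 SE), Fbxw19 (1.45 ± 0.38 SE) and Fbxw14 (1.01 ± 0.33 SE) had edgeR adjusted p of 0.00713, 0.00759 and 0.0315, with 15 or 16 of 16 knockout embryos above the wildtype median. Fbxw21 (1.21 ± 0.50 SE, adjusted p = 0.0937) and Fbxw18 (0.61 ± 0.57 SE, adjusted p = 0.497) did not pass.

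The direction at 4 cells was the same in both ranges of library numbers. Those of 1 to 8 averaged 169 ± 103 CPM for the wildtype against 406 ± 98.2 CPM for the knockout, and 190 ± 166 and 556 ± 307 CPM in 9 to 16 (SD, n = 8 each). With 8 embryos a group 4 members were called in the former (Fbxw15, Fbxw16, Fbxw19 and Fbxw24) and 2 in the latter (Fbxw24 and Fbxw28), where 1.01% and 3.57% of the genes tested were called higher. All 8 members tested were above 0 in both, with medians of 1.11 and 1.41. The sum of 10 oocyte markers was higher in the knockout here, at 20.2, 68.0 and 160 CPM in the wildtype and 68.0, 112 and 184 CPM in the knockout. Its genes were mixed: the means of Padi6, Gdf9 and H1foo were lower in the knockout and those of the other markers higher. Of the 10, 5 passed the filter, and 1 of these was called higher and 0 lower (median 0.97). The part of the markers in the result was not tested. Markers of the 2-cell stage had medians of 92.8 and 96.7 CPM in the 2 groups. The 20 egg transcripts listed for comparison include all 10 oocyte markers. Of the 20, 10 passed the filter at 4 cells, and 4 of these were called higher and 0 lower (median 0.85).

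The difference lasted to 8 cells at a low level. The family sum was 34.9, 104 and 303 CPM in the knockout (mean 118 ± 65.1 SD, n = 14) and 20.4, 40.9 and 124 CPM in the wildtype, where 13 of 14 in the knockout were above the median of the wildtype and the ratio of means was 2.55. Of 6 members that passed the filter, 4 were called higher (Fbxw14, Fbxw19, Fbxw24 and Fbxw28) and 0 lower, where 6.94% of the genes tested were called higher. The filter can be passed here too through the group where a gene is high. With no filter 5 of all 10 members were called, the fifth being Fbxw18, where 4.1% of the genes tested were called higher. The median over the 10 members was then 1.20. Fbxw19 had 1.12, 4.06 and 9.07 CPM in the wildtype against 0, 10.7 and 49.7 CPM (1.73 ± 0.41 SE, edgeR adjusted p = 0.00577, 11 of 14 above the wildtype median). Fbxw24 had 0, 8.98 and 43.4 CPM against 6.24, 34.6 and 86.9 CPM (1.47 ± 0.35 SE, edgeR adjusted p = 0.00561, 13 of 14). Most knockout embryos were above most wildtype embryos for both genes, but the ranges overlapped. Fbxw14 (1.41 ± 0.40 SE) and Fbxw28 (1.65 ± 0.48 SE) had edgeR adjusted p of 0.0184 and 0.0210.

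In libraries 1 to 8 the 8-cell means were 52.6 ± 30.4 CPM (wildtype, n = 8) and 97.6 ± 34.7 CPM (knockout, n = 6). In libraries 9 to 16 they were 39.9 ± 20.4 and 133 ± 80.0 CPM (SD, n = 8 each). There 0 members were called in the former and 2 (Fbxw14 and Fbxw24) in the latter, with median log2 fold changes of 0.82 and 1.79, where 0.242% and 1.12% of the genes tested were called higher. The oocyte marker sum had medians of 40.9 CPM (wildtype) and 40.8 CPM (knockout), but its genes were mixed. Padi6, its most abundant gene in the wildtype, was called lower (15.4 ± 8.19 against 8.35 ± 4.30 CPM, -0.91 ± 0.28 SE, edgeR adjusted p = 0.0282), and Zp3 and Nlrp5 were not called (0.41 for both). Of the 20 egg transcripts listed for comparison, all the oocyte markers among them, 6 were tested. Of these, 2 were called higher, Oosp1 (1.93 ± 0.48 SE, edgeR adjusted p = 0.00771) and Nlrp14 (0.87 ± 0.28 SE, edgeR adjusted p = 0.0378), and 1 lower, the marker Padi6 named above. The part of these genes in the result was not tested. The sum of 8-cell markers had medians of 1466 and 1157 CPM.

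**Figure D5:**
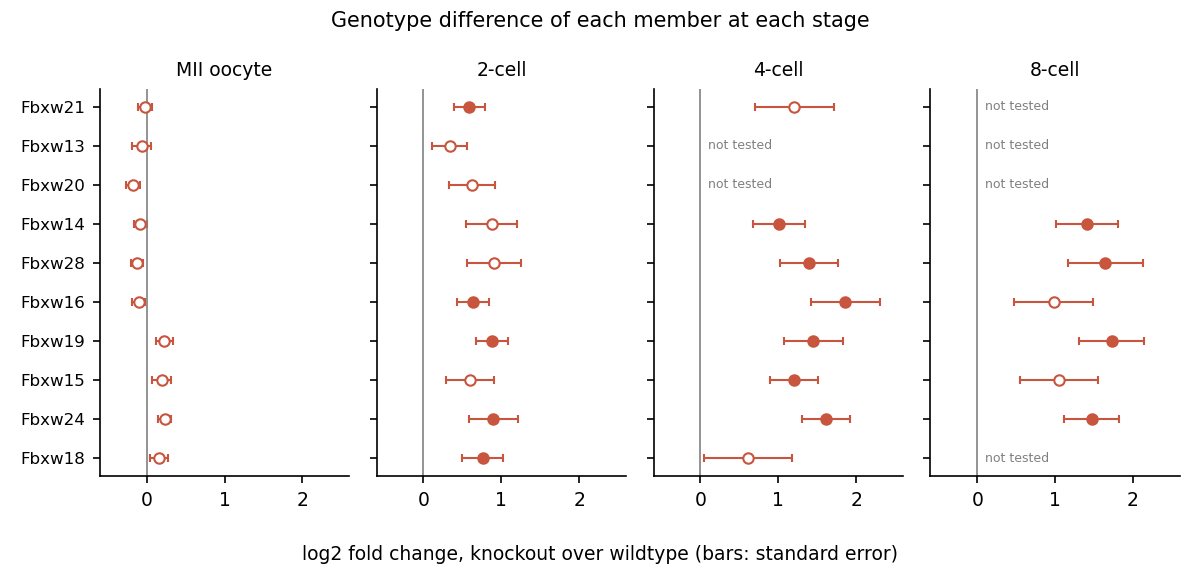
Log2 fold change of knockout over wildtype (points; bars are the standard error) for each of the 10 members at the 4 stages, filled where the edgeR adjusted p is under 0.05. The points sit near 0 in MII oocytes, between 0.34 and 0.91 at 2 cells, between 0.61 and 1.86 at 4 cells and between 0.98 and 1.73 at 8 cells, where 6 members could be tested.

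Whether a stage changed the genotype difference was tested with interaction terms. From MII to 2 cells 0 of 10 members were called by edgeR (3.99% of the genes tested were). At an unadjusted p under 0.05 were 7 of 10, against 1995 of 10240 genes tested. DESeq2 called 1, Fbxw16, and 671 of 32009 genes. Fbxw16 went from a mean of 858 to 253 CPM in the wildtype, and from 787 to 381 CPM without Kdm4a, and its steps differed by 0.72 ± 0.23 SE (edgeR adjusted p = 0.0566). All 10 terms were above 0, with a median of 0.63 against -0.04 over all genes. From 2 to 4 cells 0 of 10 were called (15.5% of the genes tested were). An unadjusted p under 0.05 was seen for 2 members and for 3177 of 10766 genes. DESeq2 called 0 members and 1884 of 32701 genes. From 4 to 8 cells 0 of 9 were called (1.86% of the genes tested were). An unadjusted p under 0.05 was seen for 1 member and for 1269 of 8908 genes. DESeq2 called 0 members and 295 of 28577 genes. The larger fold at 4 than at 2 cells was thus not shown to differ for any member.

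One embryo labelled 8-cell knockout went against its stage. Replicate 7 had a family sum of 4463 CPM, against 303 CPM in the highest of the other 14 knockout embryos, and lay within the range of the 2-cell embryos. Fbxw24 had 961 CPM in it, Fbxw14 had 780 CPM, Fbxw28 had 749 CPM and Fbxw19 had 588 CPM. Its 8-cell markers summed to 48.6 CPM, with 5 of 10 at 0 (Krt8, Krt18, Cdx2, Klf5 and Upp1), and its oocyte markers to 2245 CPM, with Mos at 0. Its 2-cell markers summed to 25.02 CPM, with 5 of 9 at 0 (Zscan4c, Zscan4f, Zfp352, Tdpoz4 and Usp17lc). That sum was 782.1 to 3746 CPM in knockout and 1237 to 4977 CPM in wildtype 2-cell embryos. This library was kept out of all tests above. Adding it raised the mean 8-cell knockout sum from 118 to 407.4 CPM. It raised the members called from 4 to 6 of 6, where 8.55% of the genes tested were called higher.

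The 4 other Fbxw genes of the cluster fell from 2 to 4 cells, while their steps before that were mixed. Fbxw22 held 1975 ± 196 CPM (SD, n = 16) in wildtype oocytes, Fbxw27 held 456 ± 58, Fbxw25 held 231 ± 84.4 and Fbxw26 held 187 ± 49.8. From MII to 2 cells Fbxw22 fell in both genotypes (-2.87 and -2.15) and Fbxw25 in the wildtype (-1.58, and -0.79 in the knockout). Fbxw26 (-0.88 and -0.07) and Fbxw27 (-0.67 and -0.29) did not pass the test with its fold threshold in either genotype. All 4 fell from 2 to 4 cells in the wildtype, by log2 changes of -5.54 (Fbxw25) to -6.14 (Fbxw22). At MII the pair Fbxw25 and Fbxw26 were called lower in the knockout (-0.58 ± 0.15 and -0.44 ± 0.11 SE, edgeR adjusted p = 0.0110 and 0.00969), a call none of the members got. At 2 cells Fbxw22 and Fbxw27 were called higher (0.88 ± 0.27 and 0.60 ± 0.20 SE, edgeR adjusted p = 0.0230 and 0.0346). The flanking genes were nearly silent, with 0.294 CPM for Plxnb1 and 0.177 CPM for Spink8 in wildtype oocytes.

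Among Fbxw genes elsewhere in the genome the step from 2 to 4 cells was mixed. Of 14 other genes (Btrc included), 10 were tested at this step in the wildtype: 5 fell, the 4 of the cluster and Fbxw4, 3 rose and 2 were not called. Fbxw4, named after its values were seen, was among the 5 (-8.15 ± 0.45 SE, edgeR adjusted p = 3.95e-26). Btrc, which codes for the F-box protein that marks beta-catenin, went from 19.5 ± 3.44 CPM in wildtype oocytes to 110 ± 35.1 CPM at 8 cells, with a call at the step from 2 to 4 cells (1.14 ± 0.24 SE, edgeR adjusted p = 2.04e-05). Fbxw2 was called higher at the same step (2.35 ± 0.26 SE, edgeR adjusted p = 1.08e-12). Of 9 F-box genes outside the class that were listed for the oocyte, 8 were tested at that step in the wildtype, and 4 rose and 1 fell. Fbxo43, the meiotic inhibitor Emi2, was the one that fell with the members (-6.88 ± 0.45 SE, edgeR adjusted p = 8.82e-23), from 131 ± 43.7 to 1.42 ± 3.20 CPM. Fbxo15, a marker of pluripotent cells, went from 89.4 ± 21.0 CPM in oocytes to 7278 ± 1353 CPM at 8 cells.

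The partners of F-box proteins did not follow one course. Skp1a, the adaptor, had 1430 ± 162 CPM (SD, n = 16) in wildtype oocytes, 3262 ± 427 at 2 cells and 997 ± 199 at 8 cells. Cul1, the scaffold, had 3504 ± 456, 3082 ± 374 and 391 ± 82.6 CPM, with a minimum of 195 ± 75.5 at 4 cells. Rbx1, the RING subunit, had 375 ± 78.3, 966 ± 121 and 516 ± 65.4 CPM. Of 8 core genes tested from 2 to 4 cells in the wildtype 5 fell and 2 rose, with a median log2 change of -1.38 against -4.95 for the members. Cul1 and Nae1 fell nearly as far as the members (-4.285 ± 0.15 and -4.27 ± 0.22 SE). Between genotypes, 2 of 8 core genes were called higher at 4 cells and 0 lower: Cul1 (1.34 ± 0.16 SE, edgeR adjusted p = 7.53e-07) and Nae1 (a subunit of the enzyme that activates Nedd8 for cullins, 1.55 ± 0.24 SE, edgeR adjusted p = 3.30e-05).

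The genes most like the family sum were sought among egg transcripts only. Over 126 libraries and 4141 genes with at least 20 CPM in wildtype oocytes, Pearson's r with the family sum on the log2(CPM + 1) scale was highest for Nlrp14 (0.979), followed by RP23-62L19.6 (0.975), Meis2 (0.973), Rspo2 (0.970) and Ccdc69 (0.970). Nlrp14 belongs to a family of maternal NLR proteins, Meis2 codes for a homeodomain factor and Rspo2 for a secreted booster of Wnt signals. The r values rest on the large steps between stages that all these genes share, and the points share library totals. With Spearman's rho 3 of these 5 stayed among the first 5. Nlrp14 went from 4509 ± 941 CPM (SD, n = 16) in wildtype oocytes to 1342 ± 612 at 2 cells and 102 ± 69.6 at 4 cells, and in the knockout from 5488 ± 1724 to 2621 ± 1517 and 172 ± 53.2 CPM. Meis2 was not called different at 2 cells, with 516 ± 79.1 CPM in the wildtype and 491 ± 78.2 CPM in the knockout (-0.03 ± 0.09 SE, edgeR adjusted p = 0.843).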

How the data were processed

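Single mouse oocytes and embryos were amplified by SMART-Seq and made into Nextera XT libraries, per the labels' protocols. Per the submitters' processing notes the authors used Trimmomatic 0.32, STAR 2.5.1a on mm10 and featureCounts 1.5.1. The authors deposited estimated counts per gene, and 30.56% of values above 0 have a fraction. The sources used here do not say how strand and reads with several matches were treated. CPM per kb uses the deposited gene length. Names follow GENCODE M18 per the deposited file's name.

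Expected counts were rounded to whole numbers. Libraries under 100000 counts were left out. Genotypes were compared per stage, and steps and interactions in 4-group fits of adjacent stages, with edgeR 4.0.16 (quasi-likelihood, robust, TMM, filterByExpr by group, Benjamini-Hochberg over all genes tested, threshold 0.05; steps also needed a log2 change of at least 1). Alternatives were DESeq2 1.42.0, RLE factors, no filter, a replicate block, a log10 depth covariate, libraries 1 to 8 or 9 to 16, doubted libraries out or in, and a fit of the 2 groups of a genotype. The edgeR steps were tested on simulated data. CPM is the rounded count over the library total. R 4.3.3, Python 3.11.15, pandas 2.3.3 and Biopython 1.88 were used.

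The members and gene lists were chosen with earlier results of these data known. Named by rule are Kdm4a, the 10 members, the 5 genes with the highest r to the family sum, the 6 other Fbxw genes (or Btrc) with the highest mean, and genes of the lists of SCF parts and other F-box genes. Libraries within a group differed by a chi-square of at least 5.12 per gene, so none was a copy of another. The replicate numbers were not treated as pairs.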

Additional observations from a re-analysis of the deposited data

Results flagged for a closer look

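The library of 8-cell knockout replicate 7 was in none of the comparisons, and its family sum of 4463 CPM lay far above the 20.4 to 124 CPM of the wildtype 8-cell embryos; its markers are given above and no cause was tested. Several genes outside the 10 members had a genotype difference that itself differed between adjacent stages (edgeR interaction, adjusted p under 0.05). From MII to 2 cells the term was 0.81 ± 0.24 SE for Fbxw26 (adjusted p = 0.0339), the neighbour of Fbxw18 in the cluster, 0.84 for Ccdc69, 0.73 for RP23-62L19.6 and -0.88 for Fbxo30. From 2 to 4 cells it was 1.74 for Fbxw4, 1.27 for Cul1, 1.25 for Nae1 and 1.15 for Meis2, and from 4 to 8 cells it was -1.30 for Cul1.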

How the results depend on the processing

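Counts of members called depended on the processing as follows. At MII (0 members in the result above) 1 was called with RLE factors, 1 with DESeq2 and 3 without MII knockout replicate 15. At 2 cells (5) 1 was called with no filter, 1 with the replicate block, 9 in libraries 1 to 8 and 0 in 9 to 16. With the block 5.69% of the genes tested were called higher. At 4 cells (6) 2 were called in libraries 9 to 16, and at 8 cells (4) 0 in libraries 1 to 8 and 2 in 9 to 16. DESeq2 called 1 interaction from MII to 2 cells (0 above). From MII to 2 cells in the knockout (9) 7 fell with RLE factors, with DESeq2 and in the fit of the 2 groups. With 8-cell knockout replicate 7 added, 0 members fell from 4 to 8 cells in the knockout (7 above). In that fit 342 of 8822 genes tested were called lower. The cause of these shifts was not tested. The replicate numbers did not pair the libraries: of 16 pairs per stage (14 at 8 cells) 3 to 6 had a correlation over 0.1, and the replicate block moved no other count of members by over 1.5 times. Directions turned for Fbxw21 at MII with DESeq2 (0.00065), no filter (0.0046), libraries 9 to 16 (0.13) and without replicate 15 (0.0033), for Fbxw13 (0.30, libraries 9 to 16) and for Fbxw15 (-0.020, libraries 1 to 8), none of them called. At 2 cells in libraries 9 to 16 Fbxw13 (-0.093), Fbxw20 (-0.017) and Fbxw15 (-0.20) turned, and with the block the 4 to 8 cell interactions of Fbxw28 (-0.20) and Fbxw19 (-0.23). Replicate 7 turned the knockout step from 4 to 8 cells for Fbxw21 (0.17), Fbxw20 (1.56), Fbxw14 (0.95), Fbxw28 (0.99), Fbxw19 (0.55), Fbxw15 (0.48) and Fbxw18 (0.83).

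The mean family sum was 26411 (wildtype) and 27137 CPM (knockout) at MII on TMM-scaled CPM and 23991 and 24416 CPM with all 14 cluster genes, an alternative added after the data were seen (as was leaving oocyte replicate 15 out of the shares), and 407.4 CPM in 8-cell knockout with replicate 7. With Spearman's rho 3 of the 5 most similar genes were kept. Over all genes, calls went from 919 to 164 (libraries 9 to 16) and 1517 (without replicate 15) at MII and from 1506 to 140 at 2 cells (9 to 16). They went from 1229 to 2670 (no filter), 140 (1 to 8) and 412 (9 to 16) at 4 cells, and from 903 to 1733, 37 and 112 at 8 cells. With no filter and with DESeq2 the steps from MII to 2 cells went from 5235 to 14100 and 9920 (wildtype) and from 5041 to 13545 and 9294 (knockout), and those from 2 to 4 cells from 8008 to 16904 and 12822 and from 8077 to 16420 and 12711. From 4 to 8 cells they went from 1969 to 4691 and from 1159 to 2948 with no filter. The interaction calls went from 409 to 221 and 671 (MII to 2 cells) and from 166 to 615, 295 and, with the block, 92 (4 to 8 cells). Depth limits the 8-cell values most, since several members were at or under 3 counts there.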

Other observations

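Among 2-cell embryos of 1 genotype the family sum followed the summed oocyte markers more closely than the summed 2-cell markers. On the log2(CPM + 1) scale Pearson's r with the oocyte markers was 0.80 in the wildtype (Spearman's rho 0.76, n = 16) and 0.76 in the knockout (rho 0.71, n = 16), and without the 2 libraries farthest from the median of the markers it was 0.80 and 0.61 (n = 14). With the 2-cell markers it was -0.23 (rho -0.24) and -0.30 (rho -0.27), and 0.17 and -0.27 without 2 libraries. With the library total it was 0.31 and 0.33. These values share library totals and are given as a description.

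The embryo set apart, 8-cell knockout replicate 7, had a family make-up of 21.5% Fbxw24, 17.5% Fbxw14, 16.8% Fbxw28 and 11.8% Fbxw15. In knockout 2-cell embryos these shares ran from 21.0% to 32.3%, 16.1% to 24.3%, 15.7% to 25.0% and 5.28% to 10.2%. Its Fbxw19 share of 13.2% lay above the 3.82% to 9.715% of those embryos and within the 6.71% to 16.4% of knockout oocytes. Its shares of Fbxw15 and of Fbxw16 (8.17%) lay above both the embryos (up to 10.2% and 6.99%) and the knockout oocytes (up to 9.66% and 5.16%).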
